A study of Homo sapiens with 33 samples.

Results

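NB4 cells after 24 h of all-trans retinoic acid (ATRA) were compared with NB4 cells after 12 h of ATRA, 3 libraries in each group and 6 of the 33 libraries of the series, chosen by the treatment and time in their names. NB4 is an established human line of acute promyelocytic leukaemia, a disease in which the PML-RARA fusion protein holds myeloid cells at the promyelocyte stage. The groups were cells given 1 µM ATRA for 24 h, cells given 1 µM ATRA for 12 h, and, as the same contrast without the drug, 3 libraries of cells given the solvent DMSO for 24 h and 3 of cells given DMSO for 12 h. All came from this 1 line, so the replicates, numbered 2, 4 and 5 and labelled as biological, are repeats of a culture and not donors. Fresh drug came with new medium on day 3 only, later than both times. RNA of whole cultures was sequenced, so fewer cells of a type and less RNA per cell cannot be told apart. The unit of level is CPM, counts relative to library size, which can compare 1 gene between libraries and not 1 gene with another. Where 3 values stand in a row they are replicates 2, 4 and 5 in that order.

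Libraries held 22318770 to 28398125 counted fragments in ATRA cells at 24 h, 19937992 to 31492385 in ATRA cells at 12 h, 18341456 to 31273271 in DMSO cells at 24 h and 24007218 to 33490654 in DMSO cells at 12 h. Libraries of a group correlated at 0.9892 to 0.993 across genes on the log scale. Per the file headers all libraries of 12 h ran in sequencing lane 4, whereas at 24 h replicate 2 ran in lane 2 and replicates 4 and 5 in lane 3, with both treatments alike. Within ATRA cells, lane and time therefore cannot be told apart, and each change is set beside that of DMSO libraries from the same lanes. Mitochondrial and small RNA genes took 8.76% to 9.27% of the counts in ATRA cells at 24 h and 7.39% to 8.63% at 12 h. The labels held for the drug: TGM2, a transglutaminase induced by retinoids, had 405, 410.1 and 397 CPM in ATRA cells at 24 h and 226, 243 and 259 CPM at 12 h, and below 3 CPM in each DMSO library of these times. The cells also carried promyelocyte RNA. The level summed over 12 promyelocyte and granulocyte lineage markers was mostly MPO. It was 11565 to 12370 CPM in ATRA cells at 24 h and 7357 to 8611 CPM at 12 h. In DMSO cells it was 10093 to 11456 CPM at 24 h and 9096 to 10507 CPM at 12 h. Members differed: by the test given below, 4 rose and 3 fell of 11 tested in ATRA cells, against 9.62% and 10.0% of all tested genes. ELANE, or elastase, was nearly absent, with 5 counts in ATRA cells at 24 h and 19 at 12 h. In DMSO cells it had 13 and 17. Among 20 erythroid and megakaryocyte markers 9 had a count in ATRA cells at 24 h and 12 at 12 h. Their sums were 6.18 to 8.54 CPM at 24 h and 8.97 to 10.7 CPM at 12 h. GATA1 had 224 and 358 counts and EPOR 200 and 328 in these groups, whereas HBB and ALAS2 had none. Of 20 lymphocyte markers 15 had a count in each ATRA group, led by CD4, which myeloid cells can also make, and NKG7, whereas MS4A1, CD2, CD5 and CD8B had none.

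As background, ATRA binds the retinoic acid receptor part of PML-RARA and turns it from a repressor into an activator, after which APL cells start to mature towards granulocytes. Granule proteins are made in a fixed order in this lineage: the azurophil granule proteins (MPO, proteinase 3, elastase, defensins) in promyelocytes, and the specific and gelatinase granule proteins (lactoferrin, CAMP) in later stages. Growth programmes such as ribosome production and cell division are shut down as the cells mature.

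Between 12 h and 24 h ATRA cells changed in a large share of their genes, and most of the large changes were falls. Of 22971 tested genes, 4514 (19.7%) differed between ATRA cells at 24 h and ATRA cells at 12 h by edgeR's quasi-likelihood test at a Benjamini-Hochberg adjusted p under 0.05. Of these 2209 (9.62%) were higher and 2305 (10.0%) lower at 24 h. Among the 846 (3.68%) that changed at least 2-fold, 157 were higher and 689 lower. DMSO cells changed far less over the same times and lanes: 227 genes (0.988%) differed, 157 (0.683%) higher and 70 (0.305%) lower, and 27 (0.118%) by at least 2-fold. The median log2 change of all tested genes was -0.01 in ATRA cells and 0.00 in DMSO cells. Across genes the 2 sets of log2 changes correlated at a Pearson r of 0.0741 and a Spearman rho of 0.117, over 22971 genes that are not independent replicates. Tested directly, the change in ATRA cells differed from that in DMSO cells for 1584 genes (6.90%), with 574 (2.50%) higher and 1010 (4.40%) lower, and for 452 (1.97%) by at least 2-fold. Of the genes called in ATRA cells, 1480 also passed this test, 545 higher and 935 lower in both, and the 2 tests share the ATRA libraries. Counts of list members below are to be read beside these shares of all tested genes.

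**Figure D1:**
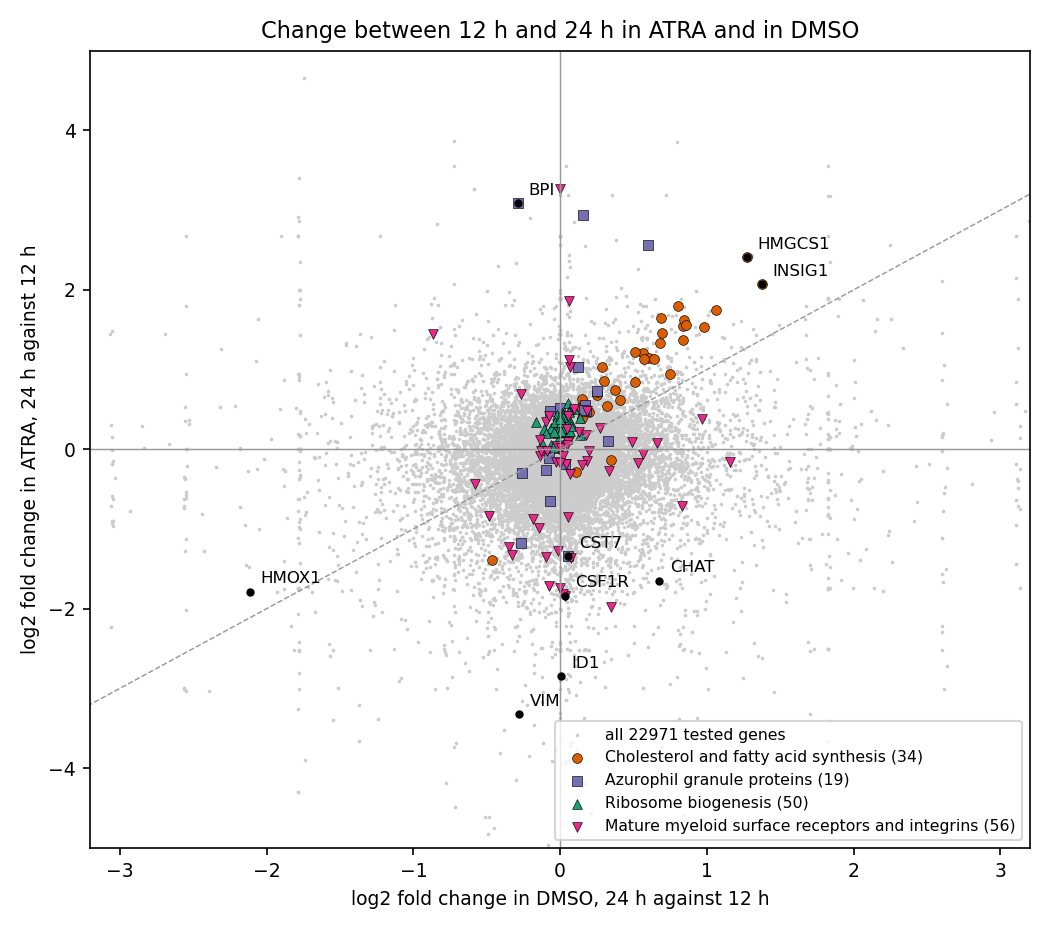
Each point is a tested gene, placed by its log2 fold change at 24 h against 12 h in DMSO cells (x axis) and in ATRA cells (y axis), fitted over 3 libraries a group; colours mark 4 gene lists, the dashed line equal changes, and 33 tested genes lie outside the axes. Cholesterol synthesis genes lie up and to the right, with HMGCS1 at 2.41 in ATRA and 1.27 in DMSO, whereas BPI at 3.09 and VIM at -3.32 in ATRA lie near 0 on the DMSO axis.

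In separate libraries of 4 h, ATRA against DMSO, 12.3% of all tested genes were called above DMSO and 12.4% below. Of the 545 genes that rose by 24 h in ATRA cells beyond the DMSO change, 196 (36%) had been below DMSO at 4 h and 56 (10.3%) above. Of the 935 that fell, 359 (38.4%) had been above DMSO at 4 h and 228 (24.4%) below. Libraries of 4 h shared no sample with those of 12 h or 24 h, but all of 4 h and 12 h ran in lane 4.

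The list with the largest share of rising members was cholesterol and fatty acid synthesis. Its synthesis genes are controlled by SREBP transcription factors when sterols are short. Of 34 tested members, 30 rose and 2 fell at 24 h in ATRA cells, with a median log2 change of 1.08, against 9.62% and 10.0% of all tested genes and their median of -0.01. HMGCS1, which makes the HMG-CoA that feeds the pathway, had 149, 153 and 139.9 CPM in the ATRA libraries of 24 h, against 28.5, 28.1 and 26.6 CPM in those of 12 h (5.32-fold, log2 change 2.41, SE 0.10, adjusted p = 8.94e-22 in edgeR's quasi-likelihood test). Its groups did not overlap, which the rule for naming it required. INSIG1, the sterol-regulated protein that holds SREBP in the endoplasmic reticulum, had 226, 218 and 198 CPM in the ATRA libraries of 24 h, against 52.2, 51.3 and 49.3 CPM in those of 12 h (log2 change 2.07, SE 0.07, adjusted p = 1.76e-24). LSS, which closes the sterol ring, rose by 1.79 (SE 0.08) and MSMO1, a sterol demethylating oxidase, by 1.75 (SE 0.11). The 2 members that fell were ABCA1, a cholesterol exporter, with a log2 change of -1.39, and MYLIP, a ubiquitin ligase controlled by sterols, with -0.29. Neither is a synthesis gene. The falling members numbered 1 when any 1 of the 6 ATRA libraries was left out.

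DMSO cells moved in the same direction by less. In them 21 of the 34 members rose and 1 fell, or 0 without replicate 2 of DMSO at 12 h, against 0.683% and 0.305% of all tested genes, with a median log2 change of 0.54. The change in ATRA cells was higher than in DMSO cells for 23 members and lower for 2, against 2.50% and 4.40% of all tested genes. HMGCS1 had 154, 129.9 and 122 CPM at 24 h and 60.7, 51.5 and 55.3 CPM at 12 h in DMSO cells, so that ATRA cells started lower at 12 h and reached the range of DMSO cells at 24 h. In the list, 26 of the 34 members had a lower mean in ATRA cells than in DMSO cells at 12 h, and 6 at 24 h. Of all tested genes 47.0% were lower at 12 h and 47.8% at 24 h. Untreated cells had a mean of 145 CPM of HMGCS1, and ATRA cells 77.6 CPM at 4 h, 27.7 at 12 h, 147 at 24 h, 745 at 72 h and 538 at 120 h (n = 3 each), so 12 h was its lowest point. DMSO cells had means of 87.7, 55.8, 135, 570 and 759 CPM at the same times, also lowest at 12 h.

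Genes for building ribosomes rose by small amounts from a low level at 12 h. Of 50 tested ribosome biogenesis genes, 39 rose and none fell in ATRA cells, against 9.62% and 10.0% of all tested genes. Their median log2 change was 0.28, and none was called in DMSO cells (edgeR's quasi-likelihood test). For 18 of them the change was larger in ATRA than in DMSO cells. NCL, or nucleolin, a nucleolar protein of ribosomal RNA transcription and processing, had 1035, 1006 and 1056 CPM in the ATRA libraries of 24 h, against 667, 715 and 688 CPM in those of 12 h (log2 change 0.58, SE 0.07, adjusted p = 2.84e-08). DMSO cells had 1161, 1177 and 1142 CPM at 24 h and 1095, 1107 and 1144 CPM at 12 h. The ATRA libraries of 24 h lay above all those of 12 h and below all 6 DMSO libraries. NOLC1, a nucleolar chaperone, averaged 370.4 ± 2.54 CPM in ATRA cells at 24 h and 262 ± 6.34 CPM at 12 h (SD, n = 3 each; log2 change 0.50). DKC1, which modifies ribosomal RNA, changed by 0.48 and TSR1, an assembly factor of the small subunit, by 0.41. At 12 h all 50 members had a lower mean in ATRA than in DMSO cells, against 47.0% of all tested genes. At 24 h 47 of the 50 did, against 47.8%. In later ATRA libraries the level dropped, with NCL at 429 CPM at 72 h and 365 CPM at 120 h. MYC, a transcription factor that drives these genes, did not pass the test and its groups overlapped, at 335, 351 and 323 CPM in ATRA cells at 24 h and 303, 342 and 327 CPM at 12 h (log2 change 0.05, adjusted p = 0.704).

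Of 57 tested cytosolic ribosomal proteins, 23 rose and none fell in ATRA cells, with a median log2 change of 0.20. Of 46 nuclear-encoded subunits of the respiratory chain 23 rose and none fell, also with a median of 0.20. Among all tested genes 9.62% rose and 10.0% fell. None of either list was called in DMSO cells, and for the ribosomal proteins no member differed from its DMSO change. These counts rested on single libraries: the ribosomal proteins numbered 4 without replicate 4 and 12 without replicate 5 of ATRA at 24 h, and 8 without replicate 2 and 3 without replicate 5 of ATRA at 12 h. The respiratory chain numbered 8, 9, 14 and 10 without the same libraries, and 14 with the size factors of the RLE method. The 12 libraries of 12 h and 24 h fitted alone called 47 ribosomal proteins.

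A list of amino acid starvation and unfolded protein response genes had 40 tested members and a median log2 change of 0.20 in ATRA cells. Of these, 18 rose and 3 fell, against 9.62% and 10.0% of all tested genes. In DMSO cells 2 rose, and 1 without replicate 4 or 5 of DMSO at 24 h or replicate 2 at 12 h. HSPA5, the main Hsp70 chaperone of the endoplasmic reticulum, had 516, 484 and 489 CPM in the ATRA libraries of 24 h, against 287, 295 and 284 CPM in those of 12 h (1.72-fold, log2 change 0.78, SE 0.07, adjusted p = 9.70e-12). DMSO cells had 433, 433 and 432 CPM at 24 h and 382, 398 and 408 CPM at 12 h. The groups of ATRA cells did not overlap, and at 24 h they lay above the DMSO libraries of the same time. MANF, a secreted stress protein, changed by 0.80 (SE 0.08, adjusted p = 1.32e-10) and SDF2L1, a partner of the chaperone complex, by 1.03 (SE 0.11, adjusted p = 5.90e-09). HERPUD1, a degradation factor of the same compartment, changed by 0.68, and it shares 10.1% of its exon sequence with a gene on the same strand, which makes its value uncertain. The members that fell were DDIT4, an inhibitor of mTORC1 signalling, with -0.54, WARS1, a tRNA synthetase, with -0.43, and PHGDH, the first enzyme of serine synthesis, with -0.40. ASNS, an amino acid response gene that makes asparagine, did not pass, with means of 42.2 CPM in ATRA cells at 24 h and 42.4 CPM at 12 h. For 10 members the change was higher and for 2 lower than in DMSO cells.

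Chaperone genes of this kind are known to carry the ER stress element, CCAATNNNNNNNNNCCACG, in their promoters. RefSeq promoters (GRCh38.p14) were searched on both strands over the 250 bases before the start, and the element, which contains a CCAAT box and so overlaps any match to that box, was in 22 of 27305 promoters (0.0806%) and in 5 of the 37 list promoters available. Of these 5 genes HSPA5, CALR, XBP1 and HSP90B1 rose, and CRELD2, a chaperone-like protein, did not pass (log2 change 0.21, adjusted p = 0.118), and these were picked after their values were seen. CALR, a calcium-binding chaperone, had 2145, 2195 and 2235 CPM in ATRA cells at 24 h and 1391, 1519 and 1409 CPM in ATRA cells at 12 h (log2 change 0.61, adjusted p = 3.38e-08). XBP1, a transcription factor of the response, changed by 0.42 and HSP90B1, an Hsp90 chaperone, by 0.31. A match is a description of the letters and not a measured site. The promoters of the 4 risers follow 5′ to 3′ on the gene's strand, to show the element in capitals, from HSPA5 (chr9:125241344-125241493, minus strand), CALR (chr19:12938374-12938523, plus strand), XBP1 (chr22:28800570-28800719, minus strand) and HSP90B1 (chr12:103930260-103930409, plus strand), where CALR and HSP90B1 hold it on the opposite strand. HSP90B1 holds another match on its own strand at -194 to -176, outside the run shown. Each run is 150 bases, those directly before the start except in CALR, where it spans bases -235 to -86.
HSPA5: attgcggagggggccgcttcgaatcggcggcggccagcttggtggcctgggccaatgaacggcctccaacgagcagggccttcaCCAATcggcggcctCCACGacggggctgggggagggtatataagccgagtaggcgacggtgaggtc
CALR: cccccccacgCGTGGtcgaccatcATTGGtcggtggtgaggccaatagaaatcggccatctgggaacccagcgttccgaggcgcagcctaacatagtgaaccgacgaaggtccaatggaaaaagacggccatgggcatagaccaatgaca
XBP1: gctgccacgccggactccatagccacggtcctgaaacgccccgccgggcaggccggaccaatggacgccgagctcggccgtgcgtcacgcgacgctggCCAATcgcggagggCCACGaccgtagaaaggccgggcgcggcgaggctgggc
HSP90B1: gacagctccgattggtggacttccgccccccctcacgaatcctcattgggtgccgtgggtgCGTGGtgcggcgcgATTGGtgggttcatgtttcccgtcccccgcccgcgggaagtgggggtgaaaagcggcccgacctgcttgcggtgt

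Of 54 tested interferon-stimulated genes, 31 rose and 2 fell in ATRA cells, against 9.62% and 10.0% of all tested genes. Their median log2 change was 0.39. In DMSO cells 8 rose and 1 fell, against 0.683% and 0.305% of all tested genes. For 16 the change was higher and for 2 lower than in DMSO cells. IFIT1, which binds viral RNA, had 21.04, 22.96 and 26.9 CPM in the ATRA libraries of 24 h, against 8.11, 7.03 and 7.25 CPM in those of 12 h (log2 change 1.67, SE 0.12, adjusted p = 5.47e-14), but it shares 47.6% of its exon length with IFIT5 and its value is uncertain. IFIT3, a partner of IFIT1 that shares none, had 23.6, 25.3 and 27.6 CPM in the ATRA libraries of 24 h, against 15.8, 14.4 and 15.9 CPM in those of 12 h (log2 change 0.73, SE 0.09, adjusted p = 1.00e-07). IRF9, a subunit of the interferon-activated factor ISGF3, changed by 0.67 and TRIM22, an antiviral ubiquitin ligase, by 1.08, and both share exon length with a neighbour (86.9% and 47.7%). The members that fell were the guanylate-binding proteins GBP2, at 27.8, 29.4 and 28.4 CPM in ATRA cells at 24 h and 54.9, 53.2 and 51.1 CPM at 12 h, and GBP1, with a log2 change of -0.77. GBP2 also shares 32.8% of its exon length.

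CXCL10, an interferon-induced chemokine, rose in both treatments at low counts, with 143 counts in the 3 ATRA libraries of 24 h and 30 in those of 12 h, and 111 in the DMSO libraries of 24 h and 47 in those of 12 h. The number of list members called higher in DMSO cells depended on single libraries: it was 4 without replicate 2 or 4 and 1 without replicate 5 of DMSO at 24 h, and 1 without replicate 2 or 4 and 4 without replicate 5 of DMSO at 12 h. Higher levels followed, since all 54 members had a higher mean in ATRA cells at 72 h than at 24 h. The share of all tested genes with such a rise was not counted. IFIT1 averaged 23.6 CPM in ATRA cells at 24 h, 664 at 72 h and 1479.5 at 120 h, and 9.39, 6.62 and 10.9 CPM in DMSO cells. TNFSF10, or TRAIL, an interferon-inducible death ligand, did not pass and its groups overlapped, at 4.38, 4.86 and 4.61 CPM in ATRA cells at 24 h and 3.94, 4.48 and 4.09 CPM at 12 h.

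Such genes are known to be switched on through the interferon-stimulated response element, for which the letters GAAANNGAAA were searched on both strands in the same 250 bases. The pattern was in 839 of 27305 promoters (3.07%) and in 23 of 42 list promoters available. It was in 14 of the 24 promoters of members that rose and in 8 of the 17 of members not called, so the pattern was also common in members that did not pass the test. Overlapping matches count separately, and A-rich stretches can match. ISG15, a ubiquitin-like modifier named because it holds the pattern, had 28.1, 28.7 and 32.8 CPM in ATRA cells at 24 h and 17.6, 19.3 and 16.9 CPM in ATRA cells at 12 h (log2 change 0.73, adjusted p = 2.08e-07). IFI6, a mitochondrial protein that opposes cell death, rose in ATRA cells (0.40, adjusted p = 0.00224) and fell in DMSO cells (-0.47, adjusted p = 0.0258). The 150 bases before the start are shown for 3 risers, with the pattern in capitals and, for IFIT1, on the opposite strand. They are IFIT1 (chr10:89392473-89392622, plus strand), ISG15 (chr1:1013347-1013496, plus strand) and IFI6 (chr1:27672193-27672342, minus strand). IFI6 holds another match at -156 to -147, which the start of the run cuts and which is not in capitals.
IFIT1: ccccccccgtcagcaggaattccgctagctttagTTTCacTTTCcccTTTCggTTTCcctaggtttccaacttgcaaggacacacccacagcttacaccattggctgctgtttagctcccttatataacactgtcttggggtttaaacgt
ISG15: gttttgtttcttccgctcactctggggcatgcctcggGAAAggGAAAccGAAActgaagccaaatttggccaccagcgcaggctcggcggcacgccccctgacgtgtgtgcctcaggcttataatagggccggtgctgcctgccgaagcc
IFI6: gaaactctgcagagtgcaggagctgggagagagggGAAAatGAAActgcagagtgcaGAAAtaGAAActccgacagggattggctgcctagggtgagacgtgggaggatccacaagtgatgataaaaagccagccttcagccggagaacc

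Azurophil granule genes split in direction. Of 19 tested members, 10 rose and 3 fell in ATRA cells, against 9.62% and 10.0% of all tested genes. Their median log2 change was 0.48. In DMSO cells 2 rose, a count of 0 or 1 when any single DMSO library of these times was left out. BPI (chr20:38260149-38338084), which kills Gram-negative bacteria, had 33.1, 31.3 and 28.9 CPM in the ATRA libraries of 24 h, against 3.44, 3.70 and 3.76 CPM in those of 12 h (8.51-fold, log2 change 3.09, SE 0.13, adjusted p = 5.53e-21). In DMSO cells it had 14 counts over the 3 libraries of 24 h and 18 over those of 12 h. The defensins DEFA3, DEFA1, DEFA1B and DEFA4, antimicrobial peptides, rose by 2.94, 2.90, 2.85 and 2.56, but DEFA1, DEFA1B and DEFA3 are near-identical copies and DEFA4 shares 10.6% of its exon length, so reads cannot be assigned to them with certainty. DEFA4 had 173, 197 and 195 CPM in ATRA cells at 24 h and 33.4, 29.2 and 33.1 CPM in ATRA cells at 12 h. Its groups did not overlap, as the naming rule required.

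PRTN3, or proteinase 3, an abundant serine protease of these granules, had 2977, 2869 and 2699 CPM in the ATRA libraries of 24 h, against 1278, 1466 and 1435 CPM in those of 12 h (2.04-fold, log2 change 1.03, SE 0.09, adjusted p = 8.10e-12). DMSO cells had 898, 1019.5 and 1036 CPM at 24 h and 833, 959.8 and 918 CPM at 12 h. Its ATRA libraries of 24 h were the highest of the time course, since PRTN3 averaged 1189.8 CPM at 72 h and 87.3 CPM at 120 h. MPO, the myeloperoxidase of the same granules, had 8146, 8017 and 7678 CPM in the ATRA libraries of 24 h, against 4919.9, 5818 and 5502 CPM in those of 12 h (log2 change 0.55, adjusted p = 9.14e-05), which did not pass the test of the difference from its DMSO change (difference 0.38, SE 0.15, adjusted p = 0.114). AZU1, or azurocidin, a neighbour of PRTN3, had 158, 142 and 138 CPM in ATRA cells at 24 h and 110.3, 129.7 and 135 CPM in ATRA cells at 12 h and did not pass (adjusted p = 0.059). The 3 members that fell were CST7, a cystatin that inhibits granule proteases, CTSG, or cathepsin G, and LYZ, or lysozyme.

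CST7 had 12.96, 12.1 and 12.9 CPM in the ATRA libraries of 24 h, against 31.2, 33.1 and 32.1 CPM in those of 12 h (log2 change -1.34, SE 0.08, adjusted p = 1.44e-16). CTSG had 7.19, 7.18 and 7.59 CPM in ATRA cells at 24 h and 17.6, 16.7 and 15.4 CPM in ATRA cells at 12 h (log2 change -1.17) and LYZ changed by -0.65. In CST7 and CTSG the groups did not overlap and the fall went on, with means of 0.830 CPM of CST7 and 0.382 CPM of CTSG at 72 h. Granule genes are known targets of C/EBP factors. The letters TTNNGCAA, a C/EBP site, were found on either strand in 2492 of 27305 promoters (9.13%) and in 5 of 11 list promoters available, those of PRTN3, AZU1, MS4A3, RNASE2 and RNASE3, of which PRTN3, MS4A3 and RNASE3 rose. The PRTN3 promoter (chr19:840849-840998, plus strand, 150 bases, GRCh38.p14, RefSeq) is shown as the member with a match that changed most, with the site in capitals.
PRTN3: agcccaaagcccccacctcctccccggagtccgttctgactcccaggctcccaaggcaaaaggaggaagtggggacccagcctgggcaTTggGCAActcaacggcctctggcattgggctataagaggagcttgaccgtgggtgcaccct

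Specific and gelatinase granule genes, which belong to later stages, were mixed. Of 29 tested members 6 rose and 6 fell in ATRA cells, against 9.62% and 10.0% of all tested genes. Their median log2 change was 0.00. In DMSO cells 3 rose and 1 fell, against 0.683% and 0.305% of all tested genes. The DMSO rises numbered 1 without replicate 5 of either time, and the fall was lost without replicate 4 at 24 h or any 1 library at 12 h. S100A8 and S100A9, the calprotectin subunits, rose by 1.69 and 1.16. S100A9 had 59.8, 61.7 and 65.6 CPM in the ATRA libraries of 24 h, against 26.96, 26.8 and 29.8 CPM in those of 12 h, and DMSO cells also rose, with 4.82, 4.24 and 4.46 CPM at 24 h and 1.82, 1.91 and 2.90 CPM at 12 h, and the test of the difference was not passed (difference 0.13, adjusted p = 0.742). CHI3L1, a chitinase-like protein, fell, with 122, 121 and 110.5 CPM in the ATRA libraries of 24 h, against 216, 236 and 255 CPM in those of 12 h (log2 change -0.998, SE 0.07, adjusted p = 2.94e-14). The defining proteins of these granules were near 0. LTF, or lactoferrin, had 6 counts in the ATRA libraries of 24 h and 1 in those of 12 h, a ratio of 6.89 with an exact 95% interval of 0.835 to 317 that covers counting error only, and it shares 13.8% of its exon length. CAMP had 25 and 32 counts in these groups.

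The phagocyte NADPH oxidase, which makes superoxide, had 10 tested genes. In ATRA cells 1 rose and 2 fell, against 9.62% and 10.0% of all tested genes, and 1 rose in DMSO cells. The DMSO rise was lost without replicate 4 or 5 of DMSO at 24 h or replicate 2 or 5 at 12 h. CYBB, its catalytic subunit, did not pass, with 649, 649 and 659 CPM in ATRA cells at 24 h and 718, 689.9 and 693 CPM at 12 h (log2 change -0.10, adjusted p = 0.378). CYBA, the partner of CYBB, rose by 0.31 (adjusted p = 0.015), a call lost in 4 of the alternative fits. Among them were those without replicate 2 or 4 of ATRA at 24 h or replicate 2 at 12 h. NCF1, a cytosolic subunit with near-identical copies and so an uncertain value, fell by 0.59 on the log2 scale, and HVCN1, the proton channel that balances the charge of the oxidase, had 13.95, 15.3 and 14.03 CPM in ATRA cells at 24 h and 30.2, 30.8 and 29.4 CPM in ATRA cells at 12 h (log2 change -1.06).

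**Figure D2:**
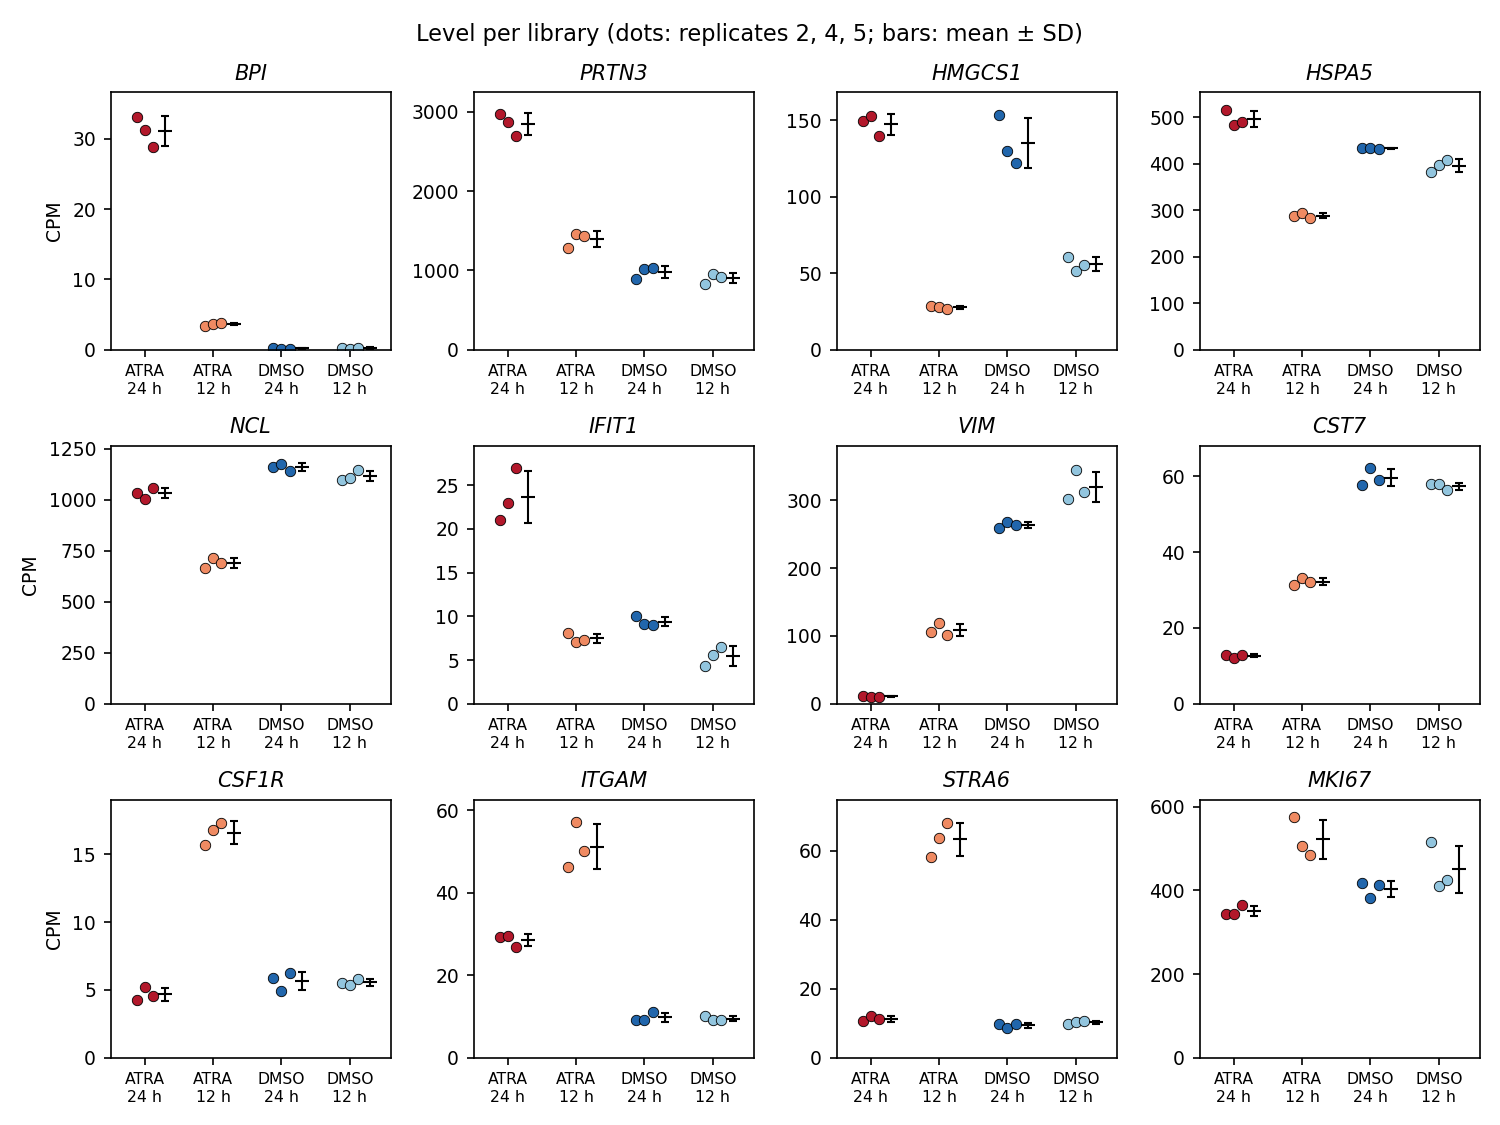
Level of 12 genes in CPM (y axis, from 0) in the 3 libraries of each of 4 groups, with dots for replicates 2, 4 and 5 and a bar for the mean ± SD. The first 6 panels hold genes that rose between the ATRA groups, such as BPI with a mean of 31.1 CPM at 24 h and 3.63 at 12 h, and genes that fell, such as VIM, CST7, CSF1R, ITGAM, STRA6 and MKI67, follow.

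Among the genes that fell, VIM (chr10:17216463-17238986), the intermediate filament vimentin, had 11.8, 10.6 and 10.1 CPM in the ATRA libraries of 24 h, against 106, 119 and 100.9 CPM in those of 12 h (10.0-fold lower at 24 h, log2 change -3.32, SE 0.09, adjusted p = 3.96e-27). DMSO cells had 258, 268 and 264 CPM at 24 h and 301, 345 and 312 CPM at 12 h. The groups did not overlap, which the naming rule required. In ATRA cells VIM averaged 274 CPM at 4 h, 108 at 12 h, 10.8 at 24 h and 177 at 72 h. ID1, an inhibitor of basic helix-loop-helix factors, had 3.204, 1.86 and 2.90 CPM in the ATRA libraries of 24 h, against 16.2, 22.4 and 19.5 CPM in those of 12 h (log2 change -2.85, SE 0.16, adjusted p = 2.36e-17), and below 1 CPM in each DMSO library of these times. It was 0.488 CPM in untreated cells, 32.5 CPM in ATRA cells at 4 h and 1.68 CPM at 72 h. ACSL6, a fatty acid activating enzyme, had 2 counts in the ATRA libraries of 24 h and 57 in those of 12 h, a ratio of 24.8 for 12 h over 24 h with an exact 95% interval of 6.57 to 210.0.

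Of 25 tested retinoid handling genes and known retinoid targets 9 fell and 5 rose in ATRA cells, against 10.0% and 9.62% of all tested genes, with a median log2 change of -0.32. In DMSO cells 3 rose, against 0.683% of all tested genes, and 1 without replicate 5 of DMSO at 12 h. STRA6 (chr15:74176706-74212307), the membrane receptor that takes up retinol, had 10.5, 12.2 and 11.2 CPM in the ATRA libraries of 24 h, against 58.1, 63.7 and 67.9 CPM in those of 12 h (5.61-fold lower at 24 h, log2 change -2.49, SE 0.10, adjusted p = 8.94e-22). DMSO cells had 9.81, 8.62 and 9.84 CPM at 24 h and 9.84, 10.4 and 10.7 CPM at 12 h. At 24 h it was close to the DMSO level, after means in ATRA cells of 90.2 CPM at 4 h and 63.3 CPM at 12 h, and at 72 h it was back at 57.1 CPM. RXRA, the partner receptor of retinoic acid receptors, fell by 0.77 on the log2 scale and DHRS3, a retinaldehyde reductase, by 0.54. CYP26A1, which degrades retinoic acid, and RARB, a receptor gene induced by it, were at low counts and did not pass, with 31 counts at 24 h and 65 at 12 h for CYP26A1 and 73 and 53 for RARB.

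TGM2 and HIC1, a transcriptional repressor, went the other way. TGM2 rose by 0.73 (SE 0.16, adjusted p = 6.89e-04) and HIC1 by 0.31 (SE 0.09, adjusted p = 0.0124). The call of TGM2 was lost in 1 and that of HIC1 in 4 of the alternative fits. The number of rising members in the retinoid list was 3 without replicate 2 or 5 of ATRA at 24 h or replicate 2 at 12 h. Of the 25 members, 22 had a higher mean in ATRA cells at 72 h than at 24 h, a share not counted for all tested genes. CD38, a surface enzyme and retinoid target, did not pass in ATRA cells, with 256, 245 and 260.0 CPM at 24 h and 283, 284 and 271 CPM at 12 h, but rose in DMSO cells and so differed between treatments (difference -0.47, adjusted p = 5.80e-04). It shares 12.7% of its exon sequence with a neighbour, which makes its value uncertain.

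Among 41 tested myeloid transcription factors, 17 fell and 5 rose in ATRA cells, against 10.0% and 9.62% of all tested genes. Their median log2 change was -0.28. The rises numbered 3 without replicate 2 or 5 of ATRA at 24 h or any 1 of its libraries at 12 h. In DMSO cells 2 fell, and 0 or 1 without replicate 4 or 5 of either time. CEBPE, the C/EBP factor of late granulocyte maturation, rose, with 336, 323 and 306 CPM in the ATRA libraries of 24 h, against 215, 267 and 254 CPM in those of 12 h (log2 change 0.39, adjusted p = 3.11e-04). CEBPA, the C/EBP factor of early granulocytes, had 155, 139 and 147 CPM in ATRA cells at 24 h and 229.6, 270.2 and 247 CPM in ATRA cells at 12 h, and CEBPB, which is linked to emergency granulopoiesis, had 50.8, 37.7 and 42.3 CPM in ATRA cells at 24 h and 80.1, 112 and 98.1 CPM in ATRA cells at 12 h. Both fell (log2 changes -0.76 and -1.15) but share 62.0% and 100% of their exon length with other genes on the strand, so their values are uncertain. CEBPD did not pass and its groups overlapped (log2 change -0.28, adjusted p = 0.0591), nor did SPI1, or PU.1, a myeloid master factor that shares 32.04% of its exon length (-0.04, adjusted p = 0.743).

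NFE2, an erythroid and megakaryocyte factor also made in myeloid cells, fell, with 17.02, 17.1 and 18.05 CPM in the ATRA libraries of 24 h, against 52.2, 59.5 and 55.8 CPM in those of 12 h (log2 change -1.68, SE 0.09, adjusted p = 9.53e-18). BCL6, a repressor of differentiation genes, had 1.82, 1.96 and 1.23 CPM in the ATRA libraries of 24 h, against 6.71, 6.49 and 5.61 CPM in those of 12 h (log2 change -1.91), after which its mean was 48.4 CPM at 72 h and 115 CPM at 120 h. PPARG, a lipid-sensing nuclear receptor, had 47 counts in ATRA cells at 24 h and 329 at 12 h (log2 change -2.60). Of 18 stem and progenitor genes 7 fell and none rose in ATRA cells, against 10.0% and 9.62% of all tested genes. None was called in DMSO cells. STAB1, a scavenger receptor, fell by 2.50, CYTL1, a cytokine-like protein of CD34+ cells, by 2.46 and GATA2, a factor of stem cells and mast cells, by 0.94 on the log2 scale. CYTL1 had 3.52, 3.77 and 3.09 CPM in ATRA cells at 24 h and 19.8, 20.5 and 16.9 CPM at 12 h, and 123, 119 and 117 CPM in DMSO cells at 24 h and 125, 125 and 125 CPM at 12 h.

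Mature surface receptors and integrins included more falls than rises. Of 56 tested members 16 fell and 9 rose, against 10.0% and 9.62% of all tested genes, with a median log2 change of -0.04. In DMSO cells 3 rose and 2 fell, the falls numbering 0 or 1 when any single DMSO library was left out. For 16 the change was lower and for 2 higher than in DMSO cells. ITGAM, or CD11b, the integrin used as a mark of granulocyte maturation, had 29.4, 29.6 and 26.8 CPM in the ATRA libraries of 24 h, against 46.3, 57.1 and 50.2 CPM in those of 12 h (log2 change -0.84, SE 0.09, adjusted p = 2.85e-09). DMSO cells had 9.16, 9.04 and 11.1 CPM at 24 h and 10.2, 9.04 and 9.17 CPM at 12 h. Its ATRA libraries did not overlap between the times and all lay above the DMSO libraries. CSF1R, the M-CSF receptor of monocytes, had 4.27, 5.18 and 4.58 CPM in the ATRA libraries of 24 h, against 15.7, 16.8 and 17.3 CPM in those of 12 h (log2 change -1.84, SE 0.11, adjusted p = 6.48e-16). CXCR4, which holds myeloid cells in the bone marrow, had 11.04, 11.9 and 11.5 CPM in the ATRA libraries of 24 h, against 39.01, 43.9 and 38.2 CPM in those of 12 h (log2 change -1.82, SE 0.12, adjusted p = 8.25e-15).

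The falls of these receptors were followed by higher levels. Means in ATRA cells at 24 h, 72 h and 120 h were 28.6, 124 and 214 CPM for ITGAM, 4.68, 22.3 and 27.99 CPM for CSF1R and 11.5, 28.7 and 69.0 CPM for CXCR4. In DMSO cells ITGAM averaged 9.77, 11.8 and 11.4 CPM at these times. Of the 56 members, 47 had a higher mean in ATRA cells at 72 h than at 24 h. The share of all tested genes with such a rise was not counted. PECAM1, an adhesion molecule, fell by 1.32 and ITGAL, or CD11a, by 1.22 on the log2 scale, and PECAM1 shares 57.4% of its exon length. CSF3R, the G-CSF receptor, fell by 0.31. ITGAX, or CD11c, fell by 0.27, a call lost in 4 of the alternative fits. The 9 rising members numbered 5 without replicate 2 of ATRA at 12 h.

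**Figure D3:**
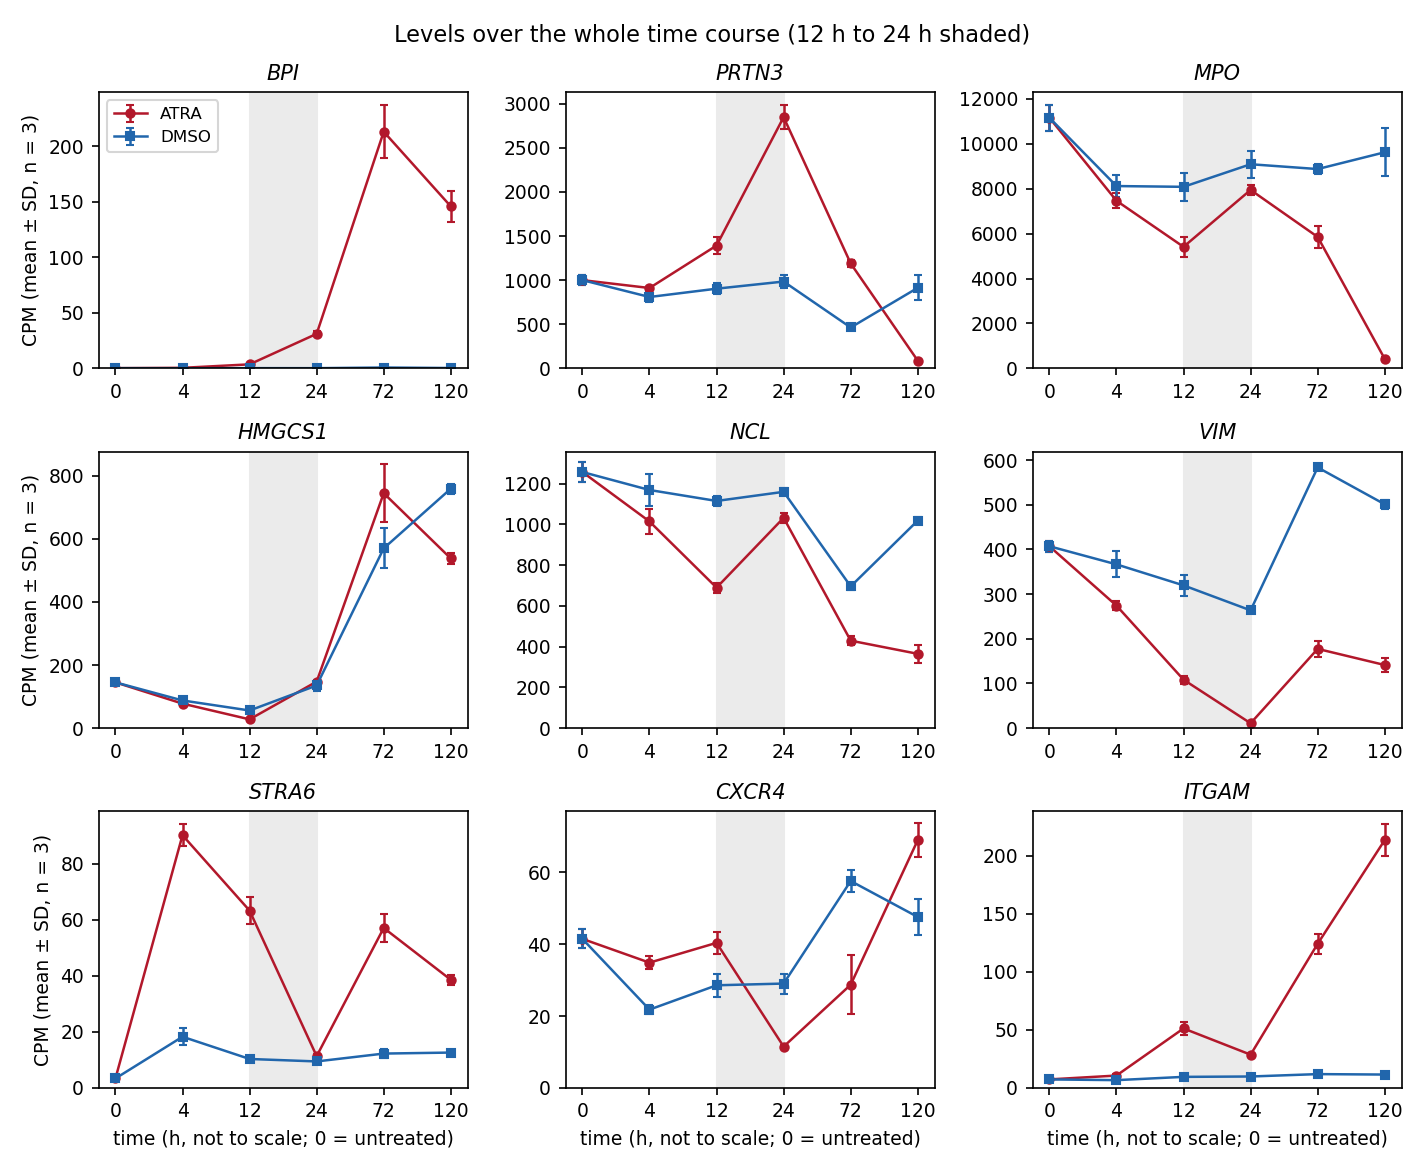
Mean CPM ± SD (y axis, from 0; n = 3) of 9 genes in ATRA cells (red) and DMSO cells (blue) against time in h, not to scale, with untreated cells at 0 and the interval of 12 h to 24 h shaded. In ATRA cells PRTN3 peaks at 24 h and NCL is higher at 24 h than at 12 h. VIM, STRA6, CXCR4 and ITGAM are lower in ATRA cells at 24 h than at 12 h and at 72 h. HMGCS1 has its lowest mean at 12 h in both treatments.

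Cell cycle genes showed small falls in mitosis. Of 50 tested mitosis genes 21 fell and none rose in ATRA cells, against 10.0% and 9.62% of all tested genes. Their median log2 change was -0.18, and none was called in DMSO cells. For 2 the change was lower than in DMSO cells, against 4.40% of all tested genes. MKI67, the proliferation antigen Ki-67, had 344, 343 and 365 CPM in the ATRA libraries of 24 h, against 575, 506 and 484 CPM in those of 12 h (log2 change -0.57, SE 0.08, adjusted p = 1.36e-06). DMSO cells had 416, 381 and 413 CPM at 24 h and 515, 409.9 and 424 CPM at 12 h. The ATRA groups did not overlap. CDC25B, a mitotic phosphatase that shares 11.3% of its exon length, fell by 0.44, INCENP, of the chromosomal passenger complex, by 0.37 and KIF4A, a chromosome motor, by 0.30 on the log2 scale. With replicate 2 left out at both times, which sets lane 3 against lane 4, 13 mitosis genes fell. Of 46 S phase genes 8 rose and 4 fell, against 9.62% and 10.0% of all tested genes, with CDC6, which loads the replicative helicase, at 0.36 and CCNE2, a G1/S cyclin, at -0.46. The rising S phase genes numbered 4 without replicate 2 of ATRA at 24 h, without replicate 2 of ATRA at 12 h or without its replicate 5, and the falling ones 2 without replicate 2 of ATRA at 24 h or replicate 4 at 12 h. None of 33 replication-dependent histone genes was called by edgeR's quasi-likelihood test in the 33 libraries, at log2 changes of -0.07 to 0.24. Other fits called some of them higher in ATRA cells, 2 with no filter on low counts, 8 with the 12 libraries alone, 11 with the 6 ATRA libraries and 17 with a replicate block in the 12 libraries.

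Of 37 tested inhibitors of the cell cycle and G1 regulators 14 fell and 5 rose in ATRA cells, against 10.0% and 9.62% of all tested genes. Without replicate 5 of ATRA at 24 h 3 rose. None was called in DMSO cells by edgeR's quasi-likelihood test, and DESeq2 and the fit with no count filter called 1 each. CDKN1C, or p57, had 0.676, 0.455 and 0.670 CPM in the ATRA libraries of 24 h, against 3.17, 5.44 and 4.67 CPM in those of 12 h (log2 change -2.87, SE 0.26, adjusted p = 4.13e-11). CDKN2D, or p19, a CDK4 and CDK6 inhibitor, had 20.5, 19.3 and 19.7 CPM in ATRA cells at 24 h and 30.5, 33.7 and 34.2 CPM in ATRA cells at 12 h (log2 change -0.73). FOXO3, a transcription factor of quiescence, changed by -0.99 and CCND3, or cyclin D3, by -0.64. CDKN1A, or p21, did not pass and its groups overlapped, with 51 counts at 24 h and 90 at 12 h (log2 change -0.61, adjusted p = 0.142).

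Of 38 chemokines and inflammatory cytokines 8 fell and 4 rose in ATRA cells, against 10.0% and 9.62% of all tested genes. In DMSO cells 3 rose, and 1 without replicate 5 of DMSO at 24 h or any 1 of its libraries at 12 h. CCL2, a chemokine that attracts monocytes, had 119, 129.6 and 122 CPM in ATRA cells at 24 h and 112, 108 and 107 CPM in ATRA cells at 12 h and did not pass (log2 change 0.18, adjusted p = 0.242). OSM, an interleukin 6 family cytokine, fell, with 1.53, 1.64 and 1.79 CPM in ATRA cells at 24 h and 4.26, 4.93 and 5.58 CPM at 12 h (log2 change -1.59). IL1B rose, at 111 counts in ATRA cells at 24 h and 62 at 12 h (log2 change 1.04, adjusted p = 0.0058), a call lost in 1 of the alternative fits. CXCL8, a neutrophil chemokine, and TNF did not pass (-0.14 and -0.33, adjusted p = 0.5 and 0.0635). Of 28 NF-kB subunits and feedback genes 3 rose and 3 fell in ATRA cells, close to the 9.62% and 10.0% of all tested genes. In DMSO cells 5 rose (3 without replicate 2 of DMSO at 12 h), against 0.683% of all tested genes. For 5 the change was lower in ATRA, against 4.40% of all tested genes. ICAM1, an adhesion molecule controlled by NF-kB, fell in ATRA cells, with 138, 133 and 128 CPM at 24 h and 167, 199 and 189 CPM at 12 h, and rose in DMSO cells, with 50.5, 55.2 and 57.0 CPM at 24 h and 34.8, 36.8 and 41.7 CPM at 12 h. Of 37 immediate-early and MAPK feedback genes 9 fell and 2 rose in ATRA cells, against 10.0% and 9.62% of all tested genes. In DMSO cells 2 fell, or 0 or 1 without any single DMSO library of these times.

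NDRG1, a gene raised by hypoxia and by differentiation, fell, with 21.2, 21.6 and 18.2 CPM in the ATRA libraries of 24 h, against 75.4, 81.7 and 78.7 CPM in those of 12 h (log2 change -1.95, SE 0.10, adjusted p = 9.51e-18), and its mean was 182 CPM at 72 h. The list it stands in, glycolysis and hypoxia response, moved both ways, with 10 rising and 8 falling of 39. Lysosome and autophagy genes also split, 13 rising and 11 falling of 44. Of 36 corepressors of PML-RARA and chromatin regulators 11 fell and 3 rose, against 10.0% and 9.62% of all tested genes.

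Further large changes that exceeded the DMSO change were in single genes. FBN1, or fibrillin, a matrix protein, rose, with 24.6, 25.2 and 27.2 CPM in the ATRA libraries of 24 h, against 5.98, 4.93 and 5.004 CPM in those of 12 h (log2 change 2.29, SE 0.11, adjusted p = 7.52e-19). PTGER2, a prostaglandin receptor, rose at low counts, 86 in ATRA cells at 24 h and 28 at 12 h (log2 change 1.81). Falls included NHSL2, an actin regulator of the Nance-Horan family, with 3.67, 3.59 and 4.06 CPM in the ATRA libraries of 24 h, against 31.3, 30.9 and 26.1 CPM in those of 12 h (log2 change -2.96), which shares 12.3% of its exon length. ASGR2, an asialoglycoprotein receptor subunit, had 1.89, 1.77 and 1.34 CPM in ATRA cells at 24 h and 9.02, 12.1 and 9.77 CPM in ATRA cells at 12 h (log2 change -2.63). CCR2, the receptor of CCL2, had 0.961, 1.18 and 0.819 CPM in ATRA cells at 24 h and 5.75, 6.04 and 5.37 CPM in ATRA cells at 12 h (log2 change -2.54). CNR2, a cannabinoid receptor of immune cells, changed by -2.58, IL2RB, the beta chain of interleukin receptors, by -2.58, CRISPLD2, a secreted LPS-binding protein, by -2.57, and HES2, a helix-loop-helix repressor, by -2.70. ANXA8L1, an annexin, changed by -2.52 but shares 79.9% of its exon length.

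A smaller set changed alike in both treatments. Of the 227 genes called in DMSO cells, 148 were also called in ATRA cells, 126 in the same direction and 22 in the opposite one, which is 3.28% of the ATRA calls and 65.2% of the DMSO calls. Ranked by the smaller of their changes in the 2 treatments, the shared rises were led by INSIG1, HMGCS1, CXCL10 and DEFA8P, the last a defensin pseudogene at 1.56 in ATRA cells and 1.49 in DMSO cells. The shared falls were led by HMOX1, the haem-degrading oxygenase, at -1.79 in ATRA and -2.11 in DMSO cells, UNC5B, a netrin receptor, at -1.89 and -1.36, CYP1A1, an aryl hydrocarbon hydroxylase, at -1.16 and -1.39, and SPSB1, a ubiquitin ligase adaptor, at -1.25 and -1.11. HMOX1 had 36 counts in ATRA cells at 24 h and 146 at 12 h, and 44 in DMSO cells at 24 h and 201 at 12 h. None of these 4 falls passed the test of the difference between treatments.

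Genes called in opposite directions were led by CHAT, SLC44A2, FCN1 and C3AR1, which fell in ATRA cells and rose in DMSO cells, and by BMP2, CD101, IFI6 and HLA-B, which did the reverse. CHAT, choline acetyltransferase, had 1.53, 1.91 and 1.41 CPM in ATRA cells at 24 h and 4.67, 5.68 and 4.67 CPM at 12 h. DMSO cells had 41.1, 40.8 and 38.7 CPM at 24 h and 23.9, 25.4 and 26.02 CPM at 12 h. The gene shares 25.1% of its exon length. SLC44A2, a choline transporter, changed by -1.25 in ATRA and 0.46 in DMSO cells, FCN1, or ficolin of monocytes, by -1.29 and 0.42, and C3AR1, a complement receptor, by -0.71 and 0.83. BMP2, a bone morphogenetic protein, had 11.3, 10.1 and 11.7 CPM in ATRA cells at 24 h and 6.71, 6.52 and 7.04 CPM at 12 h. DMSO cells had 5.84, 5.80 and 5.72 CPM at 24 h and 7.43, 8.42 and 7.79 CPM at 12 h. HLA-B, a class I molecule with close copies in the HLA genes and so an uncertain value, changed by 0.36 and -0.29. CD101, a leukocyte surface protein, changed by 0.34 and -0.71, and its ATRA call was lost in 5 of the alternative fits.

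**Figure D4:**
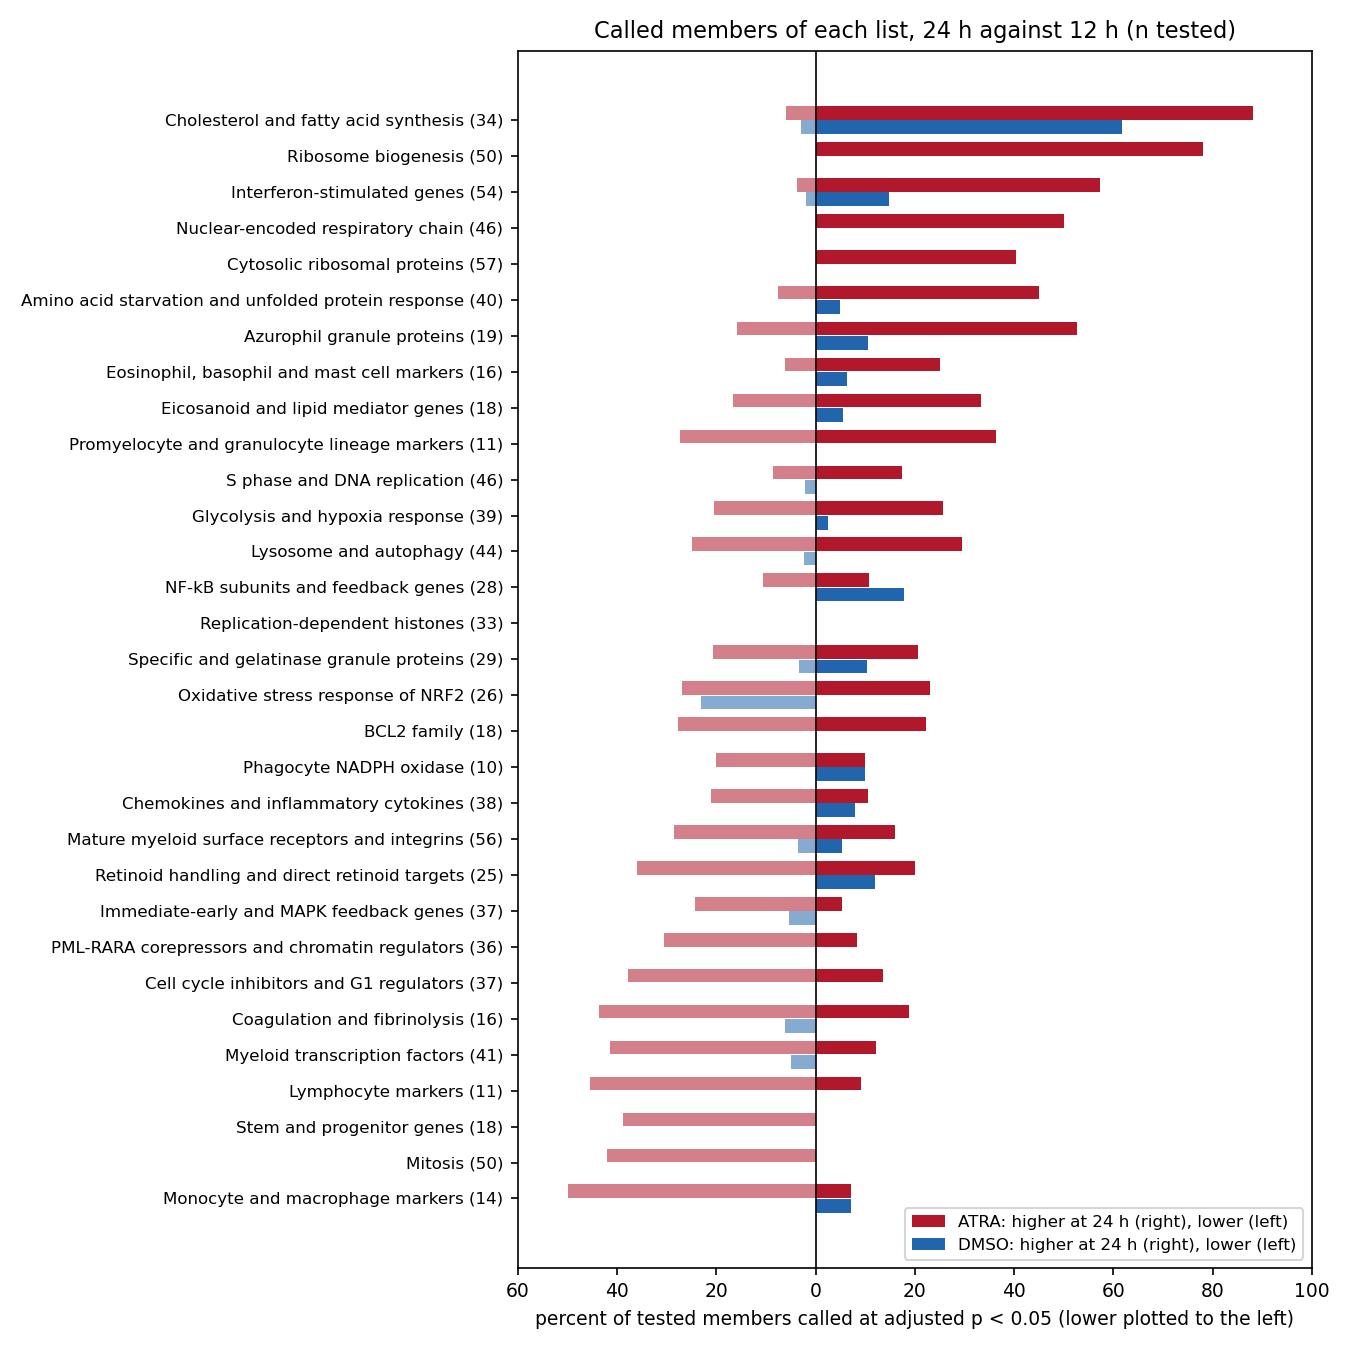
Percent of the tested members of each gene list called at 24 h against 12 h (x axis; higher to the right, lower to the left in a paler shade) in ATRA cells (red) and DMSO cells (blue), with the number tested in brackets. Cholesterol synthesis stands out in both treatments, with 30 of 34 members higher in ATRA and 21 in DMSO, and no other list holds more than 9 DMSO calls.

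Of 14 tested monocyte and macrophage markers 7 fell and 1 rose in ATRA cells, against 10.0% and 9.62% of all tested genes. Their median log2 change was -0.77. Summed over 20 such markers the level was 84.9 to 96.8 CPM in ATRA cells at 24 h and 112 to 119.8 CPM at 12 h, and 71.8 to 77.6 CPM in DMSO cells at 24 h and 71.1 to 73.9 CPM at 12 h. In ATRA cells CD68 had the most counts of these, 4272 at 24 h and 3712 at 12 h, against 1609 and 1800 in DMSO cells. MERTK had 746 and 1163 counts in ATRA cells and 155 and 200 in DMSO cells. The genes MRC1, MSR1, C1QB and C1QC had no count in either ATRA group, and CD14 had 3 counts at 24 h and 1 at 12 h. Summed levels of 17 eosinophil, basophil and mast cell markers were 535 to 570.1 CPM in ATRA cells at 24 h and 607 to 676 CPM at 12 h, those of 20 lymphocyte markers 148 to 149.6 and 122 to 147 CPM, and those of 18 epithelial and fibroblast markers, of which FBN1 is one, 56.8 to 60.3 and 39.4 to 42.6 CPM. In the same order 4, 1 and 2 tested members rose and 1, 5 and 2 fell, of 16, 11 and 9. The falls numbered 2 among eosinophil markers without replicate 2 or 4 of ATRA at 24 h, and 1 among epithelial markers without replicate 4 or 5 of ATRA at 24 h or replicate 4 at 12 h. In DMSO cells the same 3 sums were 855 to 910.3 CPM at 24 h and 866 to 939 CPM at 12 h, 104 to 119 CPM at 24 h and 91.6 to 112 CPM at 12 h, 26.9 to 30.7 CPM at 24 h and 29.2 to 29.6 CPM at 12 h. The part of such cells in the changes above was not tested.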

How the data were processed

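RNA-seq of whole NB4 cultures was analysed from the table of raw fragment counts per gene that the authors deposited. Per the labels, total RNA was extracted with a DNase step and sequenced as stranded, paired-end total RNA libraries. The submitters' processing notes name Trimmomatic 0.36, STAR 2.5.2b and GRCh38. Per the file headers, featureCounts 1.5.1 counted fragments by strand over Ensembl and FANTOM CAT gene models, with a fragment that overlaps several genes counted in each. A gene that shares exon length with another on its strand can therefore carry that gene's reads, and such genes are named as uncertain. Sequencing depth was 18341456 to 33490654 counted fragments in the 12 libraries of 12 h and 24 h.

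From these counts, 22971 of 85160 genes passed edgeR's filter on low counts, and TMM factors scaled the libraries (0.827 to 1.108). One edgeR 4.0.16 quasi-likelihood model with a mean per treatment and time was fitted to all 33 libraries (R 4.3.3), which share 1 estimate of the spread. It gave the change at 24 h against 12 h in ATRA cells, in DMSO cells, and the difference between these changes. A gene was called at a Benjamini-Hochberg adjusted p under 0.05 over all tested genes, and every adjusted p in the text is from this model unless another tool is named. CPM used the TMM-scaled library sizes. Nothing says that the replicates were grown on separate days, so p-values measure the spread between these cultures. The model was also run on simulated counts of the same genes, and no result here rests on that run.

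Symbols came from a reference list of gene names, and from GENCODE 29 where that list gave none. They were matched for 57447 Ensembl IDs. The gene lists, their members and the comparison were chosen with earlier results of these data known. Named genes were those of largest change among genes called both in ATRA cells and in the difference, or in both treatments. These had to have no overlap between the libraries of 24 h and those of 12 h. A set of marker genes and, per list, up to 4 members of smallest p were added without that demand. The members behind counts of 5 or fewer, and CALR, XBP1, HSP90B1, CRELD2 and ISG15, were named after their values were seen. Promoter sequences came from RefSeq (GRCh38.p14). Alternatives were RLE scaling, no count filter, DESeq2 1.42.0, limma 3.58.1, fewer libraries, a replicate block, 1 library left out at a time, and replicate 2 of both times left out. Times after 24 h and at 4 h entered only as group means or the 4 h contrast.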

Additional observations from a re-analysis of the deposited data

Results flagged for a closer look

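For 1584 of 22971 tested genes the change from 12 h to 24 h differed between ATRA and DMSO cells (edgeR's quasi-likelihood test of the difference, Benjamini-Hochberg adjusted p under 0.05). The values that follow are log2 changes in ATRA cells minus those in DMSO cells, for the genes named in the text that passed.

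In granule, oxidase and antimicrobial genes the differences were 3.37 for BPI, 2.78 for DEFA3, 3.10 for DEFA1, 2.75 for DEFA1B, 1.96 for DEFA4, 0.91 for PRTN3, -0.91 for CTSG, -1.40 for CST7, -0.59 for LYZ, -1.05 for CHI3L1, -0.72 for NCF1 and -1.32 for HVCN1. In sterol genes they were 1.14 for HMGCS1, 0.70 for INSIG1, 0.99 for LSS and 0.69 for MSMO1. Nucleolar genes gave 0.53 for NCL, 0.42 for DKC1, 0.41 for NOLC1 and 0.39 for TSR1, and genes of protein folding gave 0.66 for HSPA5, 0.68 for MANF, 0.85 for SDF2L1, 0.41 for HERPUD1 and 0.61 for CALR. Interferon-responsive genes gave 0.91 for IFIT1, 0.87 for IFI6, 0.40 for IRF9, 0.70 for TRIM22, 0.51 for ISG15, 0.65 for HLA-B and -1.05 for GBP2.

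Transcription factors and retinoid-related genes differed by -2.85 for ID1, -2.53 for HES2, -2.55 for PPARG, -1.46 for NFE2, -1.43 for BCL6, -0.46 for CEBPA, -1.09 for CEBPB, -0.82 for RXRA, -2.36 for STRA6, -1.05 for GATA2 and -1.01 for FOXO3. Receptors and surface genes differed by -0.90 for ITGAM, -0.61 for ITGAX, -0.88 for ITGAL, -0.99 for PECAM1, -1.87 for CSF1R, -0.38 for CSF3R, -1.84 for CXCR4, -1.86 for CCR2, -1.81 for CNR2, -2.68 for IL2RB, -2.98 for ASGR2, -1.54 for C3AR1, -0.47 for CD38, 1.055 for CD101, -0.998 for ICAM1, -2.48 for STAB1 and 2.13 for PTGER2. In genes of cell cycle and survival the values were -0.42 for MKI67, -0.37 for CDC25B, -1.78 for CDKN1C, -0.43 for CDKN2D, -0.65 for CCND3 and -0.60 for BCL2.

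Other named genes gave 2.22 for FBN1, -4.83 for ACSL6, -3.04 for VIM, -2.72 for NHSL2, -2.53 for CRISPLD2, -2.71 for ANXA8L1, 1.16 for BMP2, -2.33 for CHAT, -1.72 for SLC44A2, -1.71 for FCN1, -2.40 for CYTL1, -1.70 for OSM, -1.69 for NDRG1, 0.75 for PGD, 0.80 for TKT and 1.10 for ALOX5AP. The negative values belong to genes that fell more, or rose less, in ATRA than in DMSO cells. Genes whose reads cannot be assigned with certainty, such as the defensins, NCF1, HLA-B, CEBPA, CEBPB, IFIT1, IRF9, PECAM1 and ANXA8L1, carry that limit here as well.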

How the results depend on the processing

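Of 4514 genes called in ATRA cells, 4142 were also called by DESeq2 and 4161 with RLE size factors, which moved the median of all genes by -0.021 on the log2 scale. A 2-fold minimum left 846 genes in ATRA cells (157 higher, 689 lower), 27 in DMSO cells (21 and 6) and 452 in the difference (39 and 413). DESeq2 called 355 in DMSO cells, 140 of them lower. The 12 libraries of 12 h and 24 h alone gave 128 lower in DMSO cells and 1104 higher in the difference. The 6 libraries of 1 treatment gave 137 in DMSO cells (92 higher, 45 lower). Without replicate 2 at both times, which sets lane 3 against lane 4, 1405 were higher in ATRA cells, 87 were called in DMSO cells (61 higher, 26 lower) and 370 were higher in the difference. The cause of these shifts was not tested, and fewer libraries by construction leave less power.

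Leaving out 1 library at a time gave 3342 to 4506 calls in ATRA cells (1534 to 2157 higher, 1808 to 2392 lower), 123 to 231 in DMSO cells (81 to 154 higher, 36 to 77 lower) and 1223 to 1578 in the difference (408 to 589 higher, 815 to 989 lower). The DMSO count was 123 without replicate 4 and 125 without replicate 5 of 24 h, and 136, 146 and 137 without replicates 2, 4 and 5 of 12 h. The calls of CD101, CYBA, HIC1, ITGAX, IL1B and TGM2 in ATRA cells were each lost in at least 1 setting. CAMP, not called, had a log2 change of -0.18 in ATRA cells, 0.13 without replicate 2 of both times and -0.40 to 0.027 with 1 library left out, above 0 without replicate 2 of ATRA at 12 h.

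Libraries with the same replicate number deviated together by correlations of -0.0364 to 0.0226 in ATRA cells and 0.0123 to 0.118 in DMSO cells between the times. Between treatments they were -0.0195 to 0.0052 at 24 h and 0.037 to 0.187 at 12 h. Not every pair was over 0.1, so the numbers were not taken to pair the samples. With a replicate block the 33 libraries gave 4846 calls in ATRA cells, 307 in DMSO cells and 1755 in the difference. In the 12 libraries alone the block gave 3382 higher in ATRA cells, 604 in DMSO cells (321 higher, 283 lower) and 3373 in the difference (1887 higher), against 2236 without it.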

Other observations

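Among the non-coding transcripts called in ATRA cells, falls outnumbered rises. Of 13418 tested protein-coding genes 1865 rose and 1780 fell at 24 h in ATRA cells. Of 1129 lincRNAs 36 rose and 93 fell, of 1340 antisense RNAs 40 rose and 94 fell, and of 3044 genes of the FANTOM CAT models 34 rose and 162 fell. Each of these non-coding and FANTOM CAT classes was called less often in either direction than all tested genes, at 9.62% higher and 10.0% lower. Calls in DMSO cells were not counted by class.

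The oxidative stress genes of NRF2 moved both ways in ATRA cells. Of 26 tested NRF2 genes 6 rose and 7 fell in ATRA cells, against 9.62% and 10.0% of all tested genes. In DMSO cells 6 fell, against 0.305% of all tested genes. The DMSO falls numbered 3 without replicate 2 or 4 of DMSO at 24 h or replicate 5 at 12 h, and 13 with a replicate block in the 12 libraries. PGD, the third enzyme of the pentose phosphate pathway, had 618, 622 and 609.6 CPM in ATRA cells at 24 h and 365, 395 and 381 CPM at 12 h (log2 change 0.70), and TKT, or transketolase, changed by 0.76. Of 18 eicosanoid genes 6 rose and 3 fell in ATRA cells, against 9.62% and 10.0% of all tested genes. The falls numbered 1 without replicate 4 or 5 of ATRA at 24 h or replicate 4 at 12 h. ALOX5AP, which presents arachidonic acid to 5-lipoxygenase, had 100, 102 and 108 CPM in ATRA cells at 24 h and 48.1, 50.7 and 56.0 CPM at 12 h (log2 change 1.002), with no overlap. PTGES, a prostaglandin E synthase that shares 21.7% of its exon length, changed by -0.80.

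The BCL2 family moved both ways, with 4 of 18 members higher and 5 lower, against 9.62% and 10.0% of all tested genes. The rises numbered 1 without replicate 4 of ATRA at 24 h or replicate 2 at 12 h, and 2 without replicate 5 of either time. BCL2 itself, which blocks apoptosis, had 13.3, 14.1 and 14.3 CPM in ATRA cells at 24 h and 22.5, 21.1 and 21.1 CPM at 12 h (log2 change -0.64). BCL2A1, a family member induced in maturing neutrophils that shares 16.1% of its exon length, changed by 0.79. Of 16 coagulation and fibrinolysis genes 3 rose and 7 fell, against the same shares of all tested genes. Their rises numbered 1 without replicate 4 or 5 of ATRA at 24 h or replicate 2 or 4 at 12 h. CLC, or galectin-10, a protein of eosinophil granules, had 174 counts over the ATRA libraries of 24 h and 5 over those of 12 h, against 11 and 4 in the DMSO libraries of these times. It did not pass the test of the difference from its DMSO change.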
